A study of Mus musculus with 6 samples.

Results

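The mouse mitochondrial genome is a small circle of DNA that encodes its own ribosomal RNAs, its own transfer RNAs and a few core subunits of the respiratory chain. It is transcribed from both strands as long precursors that are cut into single RNAs, mostly at the transfer RNAs that lie between the other genes. Its messenger RNAs are translated inside the organelle by ribosomes built on the 12S and 16S rRNAs, while every protein of those ribosomes is made from nuclear genes. The testis holds mitochondria in germ cells, where they later line the sperm midpiece, and in the steroid-making Leydig cells.

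The mitochondrially encoded genes were taken as all rows of the count table whose symbol starts with mt-, which gave 37 of 57010 gene IDs. They were 2 rRNA genes, 13 protein-coding genes and 22 tRNA genes, and all 37 matched a gene of the RefSeq table of GRCm38.p6. Of these, 30 had a count in at least 1 library, and the 7 at 0 in all libraries were tRNA genes. The filter on low counts kept 11 of the 37 for testing. These were mt-Rnr1, mt-Rnr2, mt-Nd1, mt-Nd2, mt-Co1, mt-Nd3, mt-Nd4, mt-Nd5, mt-Nd6, mt-Cytb and the tRNA gene mt-Tn.

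The libraries hold RNA recovered with an antibody against PNMA4, a protein derived from a retrotransposon capsid gene and listed as Moap1 in mouse gene tables, and the design asks which RNA comes down with it. Each library came from a lysate pooled from 8 testes taken at 3 months of age, from which the dense material that collected between 25% and 70% sucrose was separated on iodixanol, and fractions 8 and 9 were used. The 3 wild-type libraries are C57BL/6J. The group lacking PNMA4 has 3 libraries, of which replicates 1 and 2 are Pnma4 KO and replicate 3 is the Pnma1, Pnma4 DKO, called the double knockout here and made from 1 lysate. The controls underwent the same immunoprecipitation, so they show what is recovered without the target of the antibody. RNA of the lysate before immunoprecipitation was not analysed here, and in these bulk samples fewer mitochondria, fewer cells of a type and less RNA per cell cannot be told apart.

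Total counts ran from 3138657 in Pnma4 knockout 1 to 6367930 in Pnma4 knockout 2. Moap1 had 7 to 27 counts in wild type and 0 in all 3 libraries lacking PNMA4, and Pnma1 had 0 counts in the double knockout and 76 to 152 elsewhere. No spermatid, spermatocyte, Leydig cell or Sertoli cell marker on the lists used was at 0 in all libraries. The double knockout stood apart. It held 57.5% of its counts in Rn18s-rs5, an 18S rRNA-related gene, against 27.3% to 36.1% in the other 5 libraries, and its TMM scaling factor was 0.629 against 1.01 to 1.29. On the TMM-scaled library size its 9 Leydig cell markers summed to 431 CPM against 170.1 to 219.9 CPM elsewhere, and its 10 Sertoli cell markers to 382 CPM against 179 to 270.0 CPM. By total counts its Leydig sum was 271.5 CPM against 188 to 249 CPM, and its Sertoli sum of 240.5 CPM lay inside the 193 to 302 CPM of the others. Epididymis markers were low but differed between the groups, with scaled sums of 7.62 to 11.5 CPM in wild type and 14.9 to 28.9 CPM without PNMA4. Crisp1, an epididymal secreted protein, was the 1 marker called on any list (0.436 ± 0.252 and 5.75 ± 2.54 CPM, n = 3 each, edgeR adjusted p = 0.00245). It was 1 of 2 epididymis markers tested, where 0.0373% of all 13413 genes tested were called lower in wild type. Of the 6 epididymis markers, 2 were at 0 everywhere. Because the scaling factor raises all levels of the double knockout, the scale is named with each level. The double knockout's place is given on both scales where it turns on the scaling.

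Mitochondrial genes took between 1.11% and 1.49% of all counts, and nearly all of it was ribosomal RNA. The share was 1.49% in wild type 1 (95% Wilson interval 1.474% to 1.498%), 1.42% in wild type 2 (1.41% to 1.43%) and 1.27% in wild type 3 (1.26% to 1.28%). It was 1.12% in Pnma4 knockout 1 (1.11% to 1.13%), 1.11% in Pnma4 knockout 2 (1.10% to 1.12%) and 1.29% in the double knockout (1.283% to 1.304%). The lowest wild-type library lay below the double knockout, so the groups overlapped. The group means differed by 0.215 percentage points (two-sided exact permutation p = 0.2, n = 3 each, 0.7 after Benjamini-Hochberg adjustment over the 7 composition measures compared). With 3 against 3 libraries the smallest p this exact test can give is 0.1. The intervals cover counting error only. On the TMM-scaled library size the difference had the opposite sign (−0.146 points).

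mt-Rnr1 (ENSMUSG00000064337, MT:70-1024) encodes the 12S rRNA of the small mitochondrial ribosomal subunit, and mt-Rnr2 (ENSMUSG00000064339, MT:1094-2675) the 16S rRNA of the large subunit. The 2 rRNA genes together held 1.445% of counts in wild type 1, 1.298% in wild type 2 and 1.14% in wild type 3. In the group lacking PNMA4 they held 1.07% and 1.01% in the Pnma4 knockouts and 1.20% in the double knockout. The means were 1.29% ± 0.153 in wild type and 1.09% ± 0.0988 in the group lacking PNMA4 (SD, n = 3 each, exact permutation p = 0.2), and wild type 3 lay below the double knockout. Within the mitochondrial counts, rRNA took 97.2%, 91.6% and 89.6% in wild type and 95.4%, 90.4% and 92.8% in the libraries lacking PNMA4. The protein-coding genes took 10.3% or less of mitochondrial counts in every library. The rRNA share was highest in wild type 1 and Pnma4 knockout 1, with group means of 92.8% ± 3.96 and 92.9% ± 2.46 (exact permutation p = 1).

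The 2 rRNAs did not keep one ratio across libraries. mt-Rnr2 had 4.46, 1.84 and 3.82 counts per mt-Rnr1 count in wild type 1 to 3. In the group lacking PNMA4 the ratio was 2.06 and 4.32 in Pnma4 knockouts 1 and 2 and 4.70 in the double knockout. Wild type 2 and Pnma4 knockout 1 were low, at 2.06 or less, and the other 4 libraries ran from 3.82 to 4.70. The low pair is made of 1 library of each group, and the mean log2 ratio was 1.66 ± 0.681 in wild type and 1.79 ± 0.655 in the group lacking PNMA4 (exact permutation p = 0.6). Per length, mt-Rnr2 stood 1.11-fold above mt-Rnr1 in wild type 2 and 2.84-fold above it in the double knockout.

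Both genes took part in the change of ratio. mt-Rnr1 stood at 2583, 3547 and 2190 CPM of the TMM-scaled library size in wild type 1 to 3, at 3460 and 1708 CPM in the Pnma4 knockouts and at 3347 CPM in the double knockout. mt-Rnr2 stood at 11530, 6540 and 8376 CPM in wild type, at 7125 and 7382 CPM in the Pnma4 knockouts and at 15730 CPM in the double knockout. On this scale mt-Rnr1 was highest in wild type 2, Pnma4 knockout 1 and the double knockout, and mt-Rnr2 in the double knockout and wild type 1. By total counts the double knockout moved down for both: mt-Rnr1 was highest in wild type 2 (4565 CPM of total counts) and Pnma4 knockout 1 (3499), with 2106 in the double knockout, and mt-Rnr2 was highest in wild type 1 (11800), with 9898 in the double knockout. Neither gene separated the groups. The log2 fold change of wild type over lacking PNMA4 was −0.03 (SE 0.28) for mt-Rnr1 and −0.19 (SE 0.33) for mt-Rnr2 (edgeR quasi-likelihood test, adjusted p = 1.00 for both, n = 3 each). The 95% interval for mt-Rnr2 reached from −0.87 to 0.48.

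**Figure D1:**
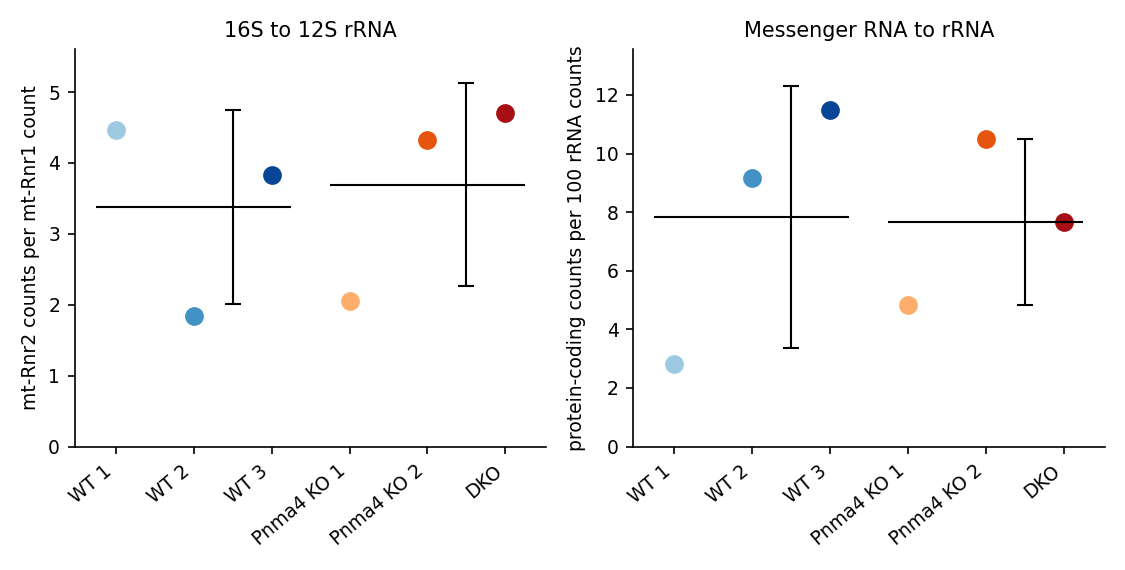
Left, counts of mt-Rnr2 (16S rRNA) per count of mt-Rnr1 (12S rRNA); right, counts of the 13 mitochondrial protein-coding genes per 100 counts of the 2 rRNA genes. Each point is 1 library, horizontal lines are group means and bars are 1 SD (n = 3 each). Wild type 2 and Pnma4 knockout 1 are low on the left at 1.84 and 2.06, and wild type 1 and Pnma4 knockout 1 are low on the right at 2.83 and 4.84.

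The 13 protein-coding genes together had 1530, 7289 and 7964 counts in wild type 1 to 3, 1626 and 6715 counts in Pnma4 knockouts 1 and 2, and 4406 counts in the double knockout. As a share of all counts that was 0.0409%, 0.119% and 0.131% in wild type and 0.0518%, 0.105% and 0.0921% in the libraries lacking PNMA4. The 95% Wilson interval of the lowest share, in wild type 1, was 0.0389% to 0.0430%, and that of the highest, in wild type 3, was 0.128% to 0.134%. Wild type 1 and Pnma4 knockout 1 were low, and they are also the 2 libraries with the fewest counts in total. The group means of 0.0969% ± 0.0489 and 0.0831% ± 0.0279 differed by less than either SD (exact permutation p = 0.6, n = 3 each). On the TMM-scaled library size the order changed at the top. The sums were 399, 926 and 1214 CPM in wild type, 512 and 952 CPM in the Pnma4 knockouts and 1464 CPM in the double knockout.

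Set against the rRNA of the same library, which needs no scaling between libraries, the protein-coding genes had 2.83, 9.18 and 11.5 counts per 100 rRNA counts in wild type 1 to 3. They had 4.84, 10.5 and 7.68 in Pnma4 knockouts 1 and 2 and the double knockout. The same 2 libraries were lowest. The means were 7.83 ± 4.49 and 7.66 ± 2.82 (exact permutation p = 1, n = 3 each). Of the 11 genes tested, 9 had wild type 1 and Pnma4 knockout 1 as their 2 lowest libraries on the scaled level, as did 7.22% of all 13413 genes tested. The exceptions were the 2 rRNA genes. By share of total counts the same 9 genes did so, against 3.03% of all genes. Both libraries carry the replicate number 1, and nothing in the labels says that they share a preparation day. The part of depth or of a shared preparation in this pattern was not tested.

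**Figure D2:**
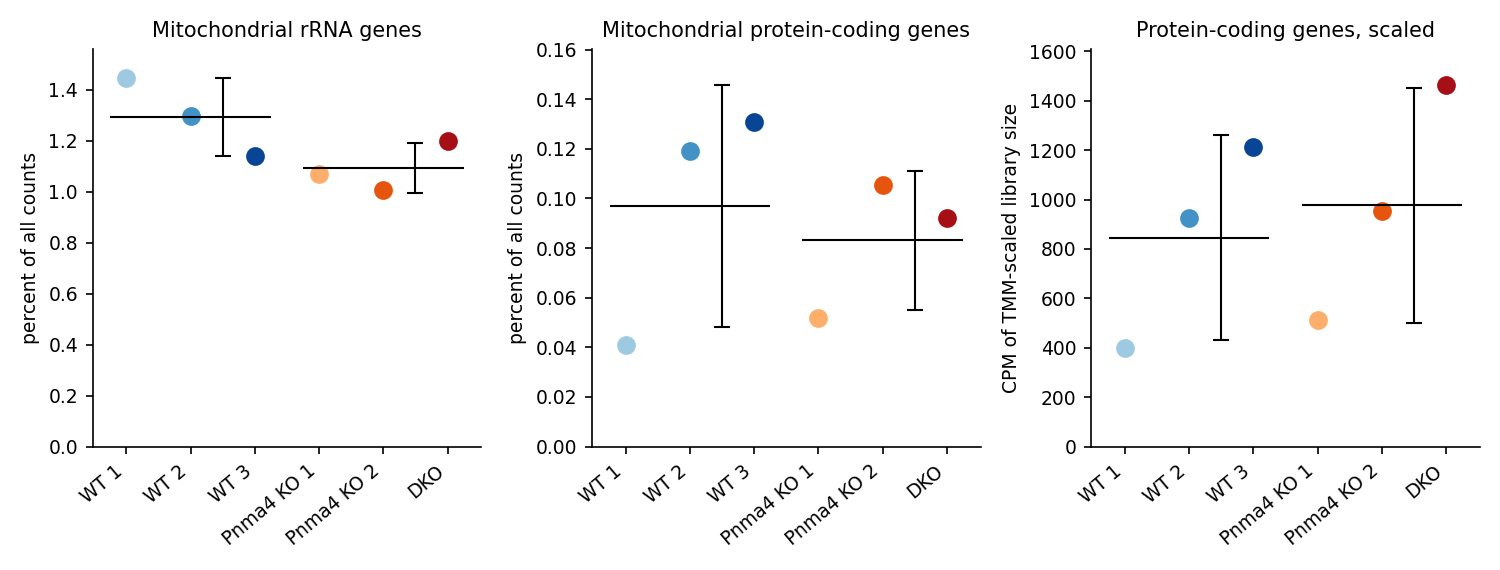
Share of all counts in the 2 mitochondrial rRNA genes (left) and the 13 protein-coding genes (middle), in percent, and the summed protein-coding level in CPM of the TMM-scaled library size (right). Each point is 1 library, lines are group means and bars are 1 SD (n = 3 each). The protein-coding share is lowest in wild type 1 and Pnma4 knockout 1 (0.0409% and 0.0518%), and scaling moves the double knockout to the top at 1464 CPM.

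Levels of different genes were compared per length, as CPM per kilobase of gene, where CPM is the count scaled to the library's total, with lengths from the RefSeq table. mt-Rnr2 stood at 5744 ± 1014 (SD, n = 6 libraries) and mt-Rnr1 at 2978 ± 1060 on this scale. The messenger RNA of mt-Co1 (ENSMUSG00000064351, MT:5328-6872), the catalytic core of cytochrome c oxidase or complex IV, was next at 226.5 ± 93.6. It stood above every other protein-coding gene in each of the 6 libraries. mt-Nd6 (MT:13552-14070) followed at 130.4 ± 60.4. It is a membrane subunit of complex I and the only protein-coding gene carried on its strand. The order mt-Rnr2, mt-Rnr1, mt-Co1, mt-Nd6, mt-Nd5 held in all 6 libraries.

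The next 3 genes lay close together. mt-Nd5 (MT:11742-13565), a proton-pumping subunit of complex I, stood at 97.0 ± 37.8 CPM per kilobase. mt-Cytb (MT:14145-15288), the cytochrome b of complex III, stood at 91.5 ± 32.5, and mt-Nd1 (MT:2751-3707), a complex I subunit near the quinone site, at 90.2 ± 40.4. mt-Nd5 was above mt-Cytb in 4 of 6 libraries and mt-Cytb above mt-Nd1 in 4 of 6, so these neighbours did not keep a fixed order. mt-Nd4 (MT:10167-11544) at 47.9 ± 24.0 and mt-Nd2 (MT:3914-4951) at 43.2 ± 21.3, both proton-pumping subunits of complex I, came below. mt-Nd1 was above mt-Nd4 in 6 of 6 libraries, and mt-Nd4 above mt-Nd2 in 5 of 6.

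For the 7 protein-coding genes with most counts, their share of the protein-coding counts moved less than their level. The highest library exceeded the lowest on the scaled level by 2.98-fold for mt-Nd6 and mt-Cytb and by up to 4.31-fold for mt-Nd4 among the 7. As a percent of protein-coding mitochondrial counts, mt-Co1 ran from 32.0% to 43.9%, mt-Nd5 from 18.1% to 21.5% and mt-Cytb from 10.4% to 13.4%. mt-Nd1 ran from 8.24% to 10.2%, mt-Nd6 from 6.15% to 9.64%, mt-Nd4 from 5.47% to 8.94% and mt-Nd2 from 3.81% to 5.99%. In each library mt-Co1 had the most counts of the protein-coding genes and mt-Nd5 the next.

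The remaining 6 protein-coding genes were near 0 in every library. They are mt-Co2 (MT:7013-7696) and mt-Co3 (MT:8607-9390), core subunits of complex IV, mt-Atp8 (MT:7766-7969) and mt-Atp6 (MT:7927-8607), subunits of the ATP synthase, and mt-Nd3 (MT:9459-9806) and mt-Nd4l (MT:9877-10173), small membrane subunits of complex I. They lie side by side on the genome between mt-Co1 and mt-Nd4, with only tRNA genes among them. This group was formed after its values were seen and is described without a test. Its counts summed to 5, 10 and 45 in wild type 1 to 3, 2 and 32 in Pnma4 knockouts 1 and 2, and 37 in the double knockout. Over all libraries the 6 genes had 131 counts over 2998 bases, and the other 7 protein-coding genes had 29399 counts over 8405 bases.

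mt-Nd3 was the most counted of the 6. Its counts were 2, 5 and 19 in wild type 1 to 3, 1 and 19 in Pnma4 knockouts 1 and 2, and 19 in the double knockout. For mt-Co3 they were 2, 3 and 12 against 1, 9 and 11. mt-Nd4l had 1, 0 and 8 against 0, 4 and 6. All 3 of these genes were lowest in wild type 1, wild type 2 and Pnma4 knockout 1. The share of protein-coding counts ran from 0.0615% to 0.431% for mt-Nd3 and from 0.0412% to 0.250% for mt-Co3, and their scaled levels differed 20.1-fold and 11.6-fold between the highest and lowest library, on few counts. For mt-Co2 they were 0, 1 and 5 in wild type and 0 in every library lacking PNMA4, where 3 counts over the group would be 0.210 CPM. mt-Atp6 had 1 count in wild type 2 and 1 in the double knockout, and mt-Atp8 had 1 count in wild type 3.

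Per length, the other 7 protein-coding genes together stood 109-fold, 260-fold and 62.8-fold above the 6 in wild type 1 to 3. The ratio was 290-fold and 74.5-fold in Pnma4 knockouts 1 and 2 and 42.1-fold in the double knockout, and it rests on few counts in the lowest libraries. The gap was thus present in both groups. In the run from mt-Ts1 to mt-Nd4l (MT:6870-10173) all 11 genes, 5 of them tRNA genes, had 136 counts over the 6 libraries. On either side, mt-Co1 had 549 to 3098 counts a library and mt-Nd4 had 89 to 630. Low tRNA counts were not particular to this run. Outside it mt-Tf, mt-Tv, mt-Tw and mt-Ts2 also had 0 counts, while mt-Tn had the most of any tRNA gene, at 66.

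**Figure D3:**
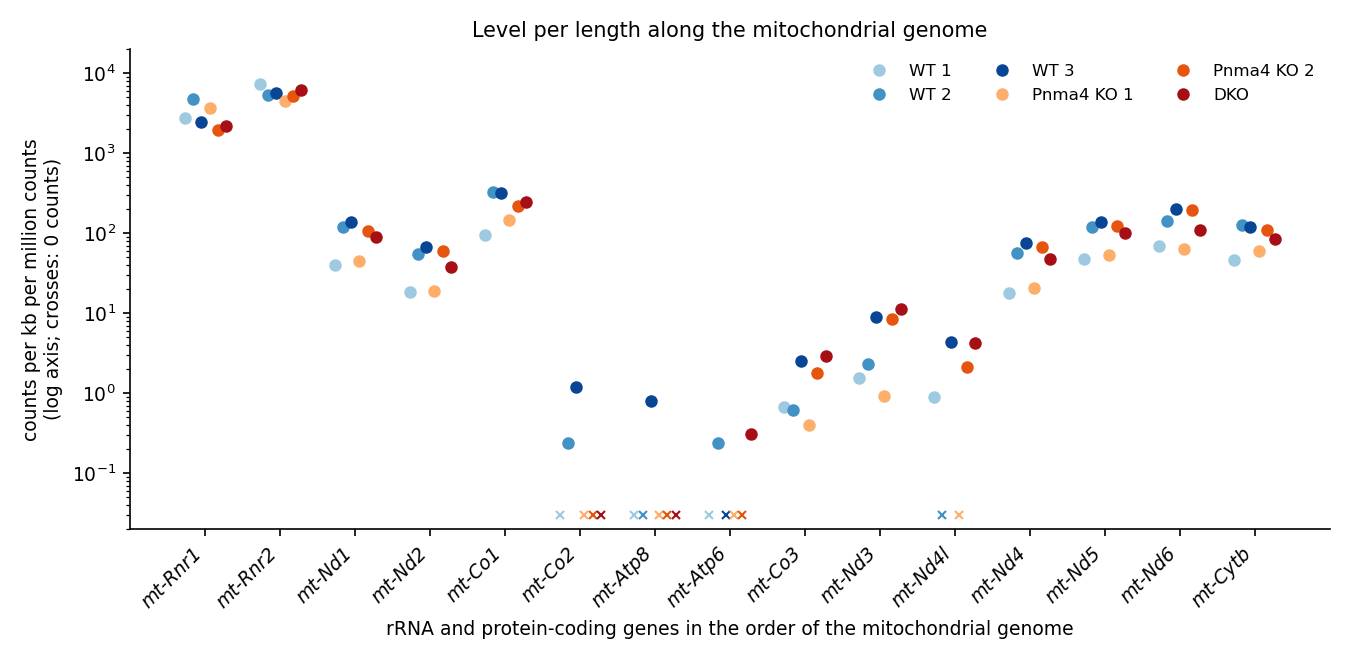
Level per length (CPM per kilobase of gene, log axis) of the 2 rRNA and 13 protein-coding genes in their order along the mitochondrial genome. Each point is 1 library and crosses mark 0 counts. The 6 genes from mt-Co2 to mt-Nd4l lie below both neighbours, mt-Co1 (mean 226.5) and mt-Nd4 (mean 47.9), in all 6 libraries. They come closest in the double knockout, where mt-Nd3 stands at 11.4 and mt-Nd4 at 48.3.

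The RefSeq table lists nuclear pseudogenes with the names or sizes of genes in this stretch. Gm10925, on chromosome 1 (GRCm38.p6, chr1:24613971-24614651), is 681 bases long, as mt-Atp6 is, and has mt-Atp6 among its synonyms. Gm10222 (chr1:24612404-24612700) is 297 bases long, as mt-Nd4l is, and was looked up after the values were seen. The ends of the 2 pseudogenes lie 1951 bases apart, and the starts of mt-Atp6 and mt-Nd4l 1950 bases apart. Gm10925 had 2 counts and Gm10222 had 3 counts over all 6 libraries. How reads that align to several places were counted is not given in the sources used here, and the part of such reads in the low counts was not tested. A list recalled as pseudogenes of mitochondrial sequence had 9 genes in the count table, of which only Gm10925 is in the RefSeq table. The other 8, whose origin was not checked, summed to 105 counts, 66 of them in Gm13340.

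Some mitochondrial genes share bases, and the treatment of reads over such bases is not given either. mt-Atp8 and mt-Atp6 share 43 bases, mt-Nd5 and mt-Nd6 share 14, and mt-Nd4l and mt-Nd4 share 7. mt-Nd6 lies on the opposite strand to mt-Nd5. Whether the counting used strand is not stated, so reads of mt-Nd6 and reads of the opposite strand over the same bases cannot be told apart.

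The 22 tRNA genes, which supply the organelle's own translation, were close to the limit of detection. Together they had 217 counts. Wild type 1 to 3 held 14, 27 and 73 of them, Pnma4 knockouts 1 and 2 held 6 and 57, and the double knockout held 40. Their mean share of counts was 0.000671% ± 0.000458 in wild type and 0.000641% ± 0.000391 in the group lacking PNMA4 (exact permutation p = 1, n = 3 each). mt-Tn (MT:5089-5159), the asparagine tRNA, had 2, 5 and 25 counts in wild type 1 to 3 and 2, 15 and 17 counts in replicates 1 to 3 lacking PNMA4, which is 30.4% of all tRNA counts. It was the one tRNA gene that passed the filter.

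The histidine tRNA mt-Th had 24 counts in all, the glutamate tRNA mt-Te 21 and the proline tRNA mt-Tp 20. mt-Ty, the tyrosine tRNA, mt-Ta, the alanine tRNA, and mt-Tl1, a leucine tRNA, tied at 15 counts each. The 5 most counted genes, with 1 of the tied genes as the last, held 146 of the 217 counts. The other 10 with a count ranged from 1 to 15. For the 7 tRNA genes at 0 everywhere, 3 counts over a group would be 0.188 CPM in wild type and 0.210 CPM in the group lacking PNMA4. The 8 tRNA genes on the strand of mt-Nd6 held 149 counts, 66 of them in mt-Tn, and the 14 on the other strand 68. Because use of strand in the counting is not stated, this split cannot be read as that of the RNA.

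No mitochondrially encoded gene passed the test of wild type against the group lacking PNMA4. Of the 11 tested, 0 were higher and 0 lower in wild type (edgeR quasi-likelihood test, adjusted p under 0.05), where 0.0224% of all 13413 genes tested were called higher and 0.0373% lower. At an unadjusted p under 0.05 edgeR gave 0 of the 11, against 2.92% of all genes. At the adjusted threshold DESeq2 and limma-voom also called 0. DESeq2, run without the filter on 30 members, had 1 at an unadjusted p under 0.05, the sparse tRNA gene mt-Tp (adjusted p = 1.00). Over all genes in that DESeq2 run, 279 of 34610 were under 0.05. The groups overlapped for every one of the 11, while over all genes the wild-type libraries lay wholly above in 3.25% and wholly below in 3.43%. The log2 fold changes were negative for 11 of 11 on the TMM scale (2 of 11 with total counts), with a median of −0.19 against 0.01 over all genes tested. That sign rested on single libraries. The median was 0.05 without wild type 1 and 0.12 without the double knockout, against −0.54 without wild type 3 and −0.50 without Pnma4 knockout 1.

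Scaling also set the sign. With total counts in place of TMM factors the median of the 11 genes was 0.19, and that of all genes moved to 0.31, so relative to all genes it stayed below by 0.12. The levels and fold changes of single genes that follow are on the TMM scale. Turning the sign did not bring any gene past the threshold.

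Among the complex I genes, mt-Nd5 had levels of 85.9, 168 and 233 CPM in wild type 1 to 3 and of 95.5, 204 and 293 CPM in Pnma4 knockouts 1 and 2 and the double knockout. Its means of 162 ± 73.8 and 197 ± 99.0 CPM gave a log2 fold change of −0.28 (SE 0.31). mt-Nd1 gave 37.8, 88.8 and 124 CPM in wild type 1 to 3 against 42.2, 92.6 and 137 CPM, a log2 fold change of −0.10 (SE 0.33). In both genes the replicate 1 libraries of the groups were the lowest and the double knockout the highest, and the difference between the group means was smaller than either SD. mt-Nd6 stood at 35.2, 56.9 and 97.7 CPM against 32.8, 91.8 and 90.1 CPM (−0.18, SE 0.31). mt-Nd4 stood at 24.5, 61.1 and 96.1 CPM against 28.0, 85.1 and 106 CPM (−0.26, SE 0.36).

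mt-Nd2 had means of 42.7 ± 23.3 and 46.7 ± 23.7 CPM in wild type and the group lacking PNMA4 (−0.12, SE 0.34). mt-Nd3 had the largest estimate of the 11 genes and the fewest counts, 65 in all against 66 for mt-Tn. Its level was 0.522, 0.635 and 2.90 CPM in wild type 1 to 3 against 0.315, 2.70 and 6.32 CPM. Its log2 fold change was −1.08 (SE 0.63, 95% interval −2.38 to 0.22), and wild type 3 lay above both Pnma4 knockouts. The estimate was −0.34 without the double knockout, −0.65 without wild type 2 and −2.29 without wild type 3.

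mt-Cytb of complex III had levels of 52.5, 113 and 126 CPM in wild type 1 to 3, of 68.7 and 114 CPM in the Pnma4 knockouts and at 156 CPM in the double knockout (−0.21, SE 0.28). mt-Co1 of complex IV stood at 143, 393 and 465 CPM in wild type, at 225 and 304 CPM in the Pnma4 knockouts and at 607 CPM in the double knockout (−0.18, SE 0.33). For both messages wild type 1 was the lowest library and, on this scale, the double knockout the highest. The tRNA gene mt-Tn stood at 0.522, 0.635 and 3.81 CPM against 0.630, 2.13 and 5.65 CPM (−0.61, SE 0.63). The adjusted p from edgeR was 1.00 for each gene in these paragraphs.

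**Figure D4:**
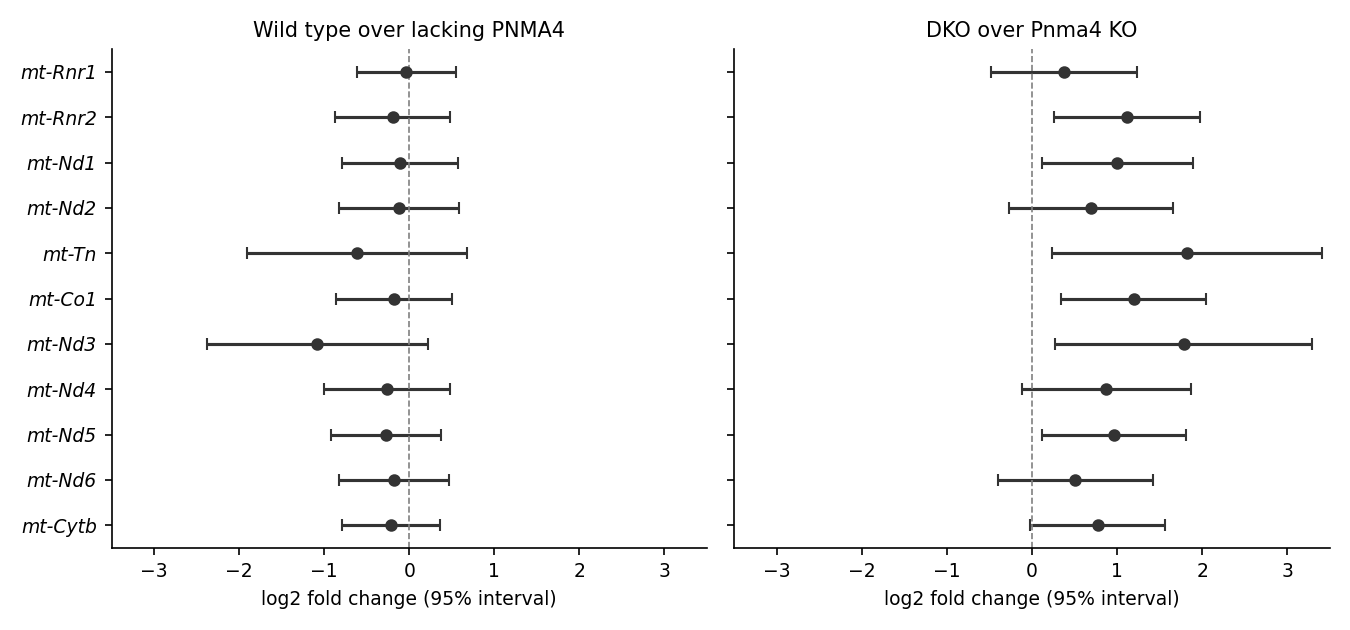
Log2 fold changes of the 11 tested genes with 95% intervals from edgeR, for wild type over the group lacking PNMA4 (left, 3 against 3 libraries) and for the double knockout over the Pnma4 knockouts (right, 1 against 2 libraries, 3-genotype model). On this TMM scale all 11 intervals on the left include 0 with negative points (9 are positive with total counts). All 11 points on the right are positive on this scale (8 with total counts), with no gene past the adjusted threshold. Intervals on the right rest on 1 double knockout library.

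The double knockout was set against the 2 Pnma4 knockouts in a model with the 3 genotypes as groups, in which the single double knockout library is assumed to vary like the others. On the TMM scale the log2 fold change was positive for 11 of 11 genes (8 with total counts), with a median of 0.96 against −0.00 over all genes tested. The double knockout was not above both Pnma4 knockouts for each gene. It lay below Pnma4 knockout 1 for mt-Rnr1 (3347 against 3460 CPM) and below Pnma4 knockout 2 for mt-Nd6 (90.1 against 91.8 CPM). None passed the adjusted threshold (0 of 11 in edgeR and 0 in DESeq2), where 0.0373% of all genes were called higher and 0.0373% lower. At an unadjusted p under 0.05 edgeR gave 6 of 11, against 6.18% of all genes. The largest estimates were 1.82 for mt-Tn (SE 0.78) and 1.78 for mt-Nd3 (SE 0.74), on only 66 and 65 counts in all. Next came 1.20 for mt-Co1 (SE 0.42), 1.12 for mt-Rnr2 (SE 0.42), 1.00 for mt-Nd1 (SE 0.44) and 0.96 for mt-Nd5 (SE 0.41). The estimate was 0.37 for mt-Rnr1 (SE 0.42) and 0.51 for mt-Nd6 (SE 0.45), the smallest among the genes tested.

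On the scaled level the double knockout was the highest of the 6 libraries for 8 of 11 genes (mt-Rnr2, mt-Nd1, mt-Tn, mt-Co1, mt-Nd3, mt-Nd4, mt-Nd5 and mt-Cytb), as it was for 22.9% of all genes tested. By share of total counts it was highest for mt-Nd3 alone, against 1.63% of all genes. With total counts in place of TMM factors the median of the contrast was 0.19 and that of all genes −0.76, a gap of 0.95. The median was 0.76 without Pnma4 knockout 1 and 1.59 without Pnma4 knockout 2. Markers of Leydig cells, which make steroids in part inside mitochondria, were also high in that library. On the TMM scale their median log2 fold change in the same contrast was 1.04 over 9 tested genes, and that of 9 Sertoli cell markers was 0.76. The spermatid markers had a median of −0.10 over 10 genes and the spermatocyte markers 0.31 over 8. The median was 0.55 for peritubular and vascular markers (4 tested) and 0.71 for epididymis markers (2 tested). It was 0.49 for blood (1 tested) and 0.01 for macrophage markers (3 tested). With total counts the medians were 0.28 for Leydig, 0.02 for Sertoli, −0.85 for spermatid and −0.45 for spermatocyte markers, beside the −0.76 of all genes. The part of cell makeup, or of the Pnma1 deletion, in this 1 library was not tested.

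Nuclear genes that copy, transcribe, process and translate the mitochondrial genome were read beside it. In the comparison of wild type with the group lacking PNMA4, 0 of 143 tested genes on 6 lists passed in either direction (edgeR, adjusted p under 0.05), near the background given above. For DNA maintenance and transcription, 14 of 17 genes were tested, with 5 positive and 9 negative log2 fold changes and a median of −0.06. The mitochondrial DNA polymerase Polg had mean levels of 105 ± 11.7 CPM with PNMA4 and 109 ± 14.8 CPM without it, and Tfam, which packages the genome and starts its transcription, at 19.9 ± 6.28 and 21.8 ± 1.62 CPM (n = 3 each). Neither gene passed the test.

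For RNA processing and stability, 25 of 31 genes were tested, with 11 positive and 14 negative and a median of −0.06. Nsun4, which methylates 12S rRNA, stood at 643 ± 204 and 541 ± 231 CPM, and Lrpprc, which stabilises mitochondrial messenger RNAs, at 40.1 ± 2.81 and 47.5 ± 9.03 CPM. The scaled Nsun4 level was lowest in the double knockout at 297 CPM and in wild type 1 at 415 CPM. Of 78 mitochondrial ribosomal protein genes, 60 were tested, 17 positive and 43 negative, with a median of −0.18, close to the −0.19 of the mitochondrially encoded genes. Mrpl39 stood at 20.7 ± 0.343 and 22.8 ± 5.34 CPM and Mrpl51 at 16.03 ± 1.40 and 18.5 ± 2.38 CPM.

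The mitochondrial aminoacyl-tRNA synthetases and their partners had 20 of 21 genes tested and a median of −0.05. Lars2, for leucine, was far above the rest of the list. Its level was 87380, 5833 and 65630 CPM in wild type, 106900 and 39170 CPM in the Pnma4 knockouts and 139800 CPM in the double knockout, lowest in wild type 2. By share of all counts it was highest in Pnma4 knockout 1 at 10.8%, with 8.95% in wild type 1 and 8.79% in the double knockout. Whether all reads counted under Lars2 came from its own message was not tested. Mars2, for methionine, had 102 ± 78.3 and 123 ± 21.7 CPM. Translation and insertion factors had 14 of 16 tested and a median of −0.06, with Letm1, which the list holds for its link to mitochondrial ribosomes, at 20.4 ± 4.35 and 21.2 ± 5.16 CPM and the initiation factor Mtif2 at 17.9 ± 4.80 and 17.3 ± 6.13 CPM. Outer membrane import and channel genes had 10 of 13 tested and a median of −0.16, with Vdac2 at 102 ± 11.3 and 121 ± 20.2 CPM and Tomm70a at 85.0 ± 20.6 and 91.7 ± 12.2 CPM.

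In the contrast of the double knockout with the Pnma4 knockouts, the medians of the 6 nuclear lists were −0.05 for DNA maintenance, 0.15 for RNA processing, 0.31 for ribosomal proteins, −0.02 for synthetases, 0.48 for translation factors and 0.21 for import. Each was below the 0.96 of the mitochondrially encoded genes on the TMM scale. With total counts all genes shifted down, with a median of −0.76, and the medians of the 6 lists ran from −0.80 to −0.28. On that scale Nsun4 had a log2 fold change of −1.92, beside −0.60 for the median of its list, RNA processing. Only effect sizes are given for these lists, because the contrast has 1 double knockout library. The lists and the mitochondrial genes were not compared by a test.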

How the data were processed

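RNA from 6 PNMA4 immunoprecipitates was measured by sequencing. The authors deposited 1 table of raw counts per Ensembl gene, which was analysed unchanged. STAR 2.5.2b, featureCounts (Subread), bcl2fastq 2.20, DESeq2 and GRCm38 are named, per the submitters' processing notes, without settings. For strand, multi-mapping reads and annotation release, settings were not given in the sources. Libraries were grouped by genotype as the labels group them, with the double knockout as replicate 3 of the group lacking PNMA4, and labels call replicates biological.

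Counts were tested with edgeR 4.0.16 (R 4.3.3; filterByExpr, minimum count 10 and total 15; TMM; quasi-likelihood F test; Benjamini-Hochberg at 0.05 over 13413 genes). The SE is the absolute log2 fold change over the square root of F. Shares were compared with exact two-sided permutation tests (scipy 1.17.1). Alternatives were DESeq2 1.42.0, limma 3.58.1 (voom with quality weights), other scalings, filters, denominators, a replicate block and omitted libraries. Before use, the edgeR code was tested on simulated counts. Lengths and coordinates came from RefSeq GRCm38.p6.

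All rRNA and protein-coding members were named, with tRNA genes past the filter or among the 5 most counted, and the 2 most abundant or any called genes of each nuclear list. Members and lists were chosen with earlier results of these data known.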

Additional observations from a re-analysis of the deposited data

How the results depend on the processing

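No mitochondrially encoded gene was called in any of the 17 alternatives to the comparison of wild type with the group lacking PNMA4 or the 9 to the contrast of the knockouts, but signs moved with scaling. The differences in share (wild type minus lacking PNMA4, in percentage points) turned negative for counts outside Rn18s-rs5, outside Rn18s-rs5 and Lars2, and for TMM-scaled size: −0.120, −0.343 and −0.146 for all mitochondrial genes, −0.109, −0.315 and −0.133 for rRNA, −0.0112, −0.0277 and −0.0130 for protein-coding genes, and −0.000212, −0.000331 and −0.000169 for tRNA. Without both libraries numbered 1, an alternative chosen after seeing the data, the tRNA difference was −4.57e-05 and mt-Rnr1 had a log2 fold change of 0.20.

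With total counts only, log2 fold changes turned positive: 0.35 for mt-Rnr1, 0.21 for mt-Rnr2, 0.31 for mt-Nd1, 0.25 for mt-Nd2, 0.29 for mt-Co1, 0.13 for mt-Nd4 and mt-Nd5, 0.16 for mt-Nd6 and 0.19 for mt-Cytb. With 3 genotypes, wild type over Pnma4 knockouts gave 0.10 for mt-Rnr1, 0.28 for mt-Rnr2, 0.30 for mt-Nd1, 0.14 for mt-Nd2, 0.13 for mt-Tn, 0.34 for mt-Co1, 0.084 for mt-Nd4, 0.11 for mt-Nd5, 0.0088 for mt-Nd6 and 0.090 for mt-Cytb. Limma-voom gave 0.099 for mt-Rnr1. The cause was not tested.

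Leaving out 1 library at a time, the difference ran from −0.00313 to 0.0418 points for the protein-coding share, −0.000233 to 0.000179 for the tRNA share, −2.29 to 1.52 for the rRNA share of mitochondrial counts, −0.51 to 0.25 for the log2 ratio of mt-Rnr2 to mt-Rnr1 and −1.66 to 2.67 for protein-coding counts per 100 rRNA counts. Log2 fold changes ran from −0.30 to 0.14 for mt-Rnr1, −0.44 to 0.28 for mt-Rnr2, −0.49 to 0.30 for mt-Nd1, −0.54 to 0.22 for mt-Nd2, −2.11 to 0.14 for mt-Tn, −0.48 to 0.34 for mt-Co1, −0.73 to 0.10 for mt-Nd4, −0.62 to 0.12 for mt-Nd5, −0.62 to 0.10 for mt-Nd6 and −0.46 to 0.093 for mt-Cytb, and from −2.29 to −0.34 for mt-Nd3.

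Whether the replicate numbers pair the samples cannot be told from deviations within groups of 3 libraries. Over 13413 genes the deviations of same-numbered libraries from their group means correlated at 0.0372, −0.0637 and 0.0794. Differently numbered pairs ran from −0.192 to 0.192. Over the 11 tested mitochondrial genes the same-numbered libraries correlated at 0.554, −0.0977 and 0.737. Differently numbered pairs then ran from −0.92 (wild type 3 with Pnma4 knockout 1) to 0.711 (wild type 3 with Pnma4 knockout 2). With a replicate block the median was −0.22, 0 mitochondrial genes were called, and 3 higher and 4 lower calls over all genes stood against 3 and 5. Counts of 2 to 45 a library in the 6 genes from mt-Co2 to mt-Nd4l, and of 6 to 73 in tRNA genes, limit any comparison of those classes.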
